A study of Mus musculus with 49 samples.

Results

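The genes described here encode the proteins of the mitochondrial ribosome. They were taken from the deposited count tables as the gene rows that the mouse annotation calls protein-coding and whose symbol begins with Mrpl or Mrps and a digit, which gave 78 of 54838 gene rows. Of these, 51 belong to the large subunit, 26 to the small subunit and 1, Mrps36, lies outside the mitoribosome. RNA was read from single late 2-cell mouse embryos of an F1 cross (C57BL/6JxCBA/H), collected 48 h after hCG. Each embryo had been injected as a zygote with an antibody and, 4 h later, with mRNA for mCherry-Trim21, a ubiquitin ligase that sends antibody-bound protein to degradation (Trim-Away). The 4 groups were 9 TBP LOF embryos (antibody to TBP, the TATA-binding protein of the general transcription machinery), 10 CONTROL embryos with mouse IgG, 17 FOXJ3 LOF embryos (antibody to the forkhead factor FOXJ3) and 13 CONTROL embryos with rabbit IgG. All 4 groups therefore received an antibody and Trim21, and the method removes protein and not the gene, so the mRNA of the target does not check the label. The TBP embryos came from several collections that the labels do not tie to single embryos, and the FOXJ3 embryos from 2 library batches.

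Mitochondria carry their own ribosome, which translates the few respiratory chain subunits encoded in mitochondrial DNA. Its rRNAs are transcribed from mitochondrial DNA, while its proteins are all encoded in the nucleus, made on cytosolic ribosomes and imported. Some of these proteins are classed as having a bacterial counterpart and others as mitochondria-specific, here by the unified nomenclature of mitoribosome proteins. The symbols of a few of them mislead. Mrps30 and Mrps18a are named after the small subunit but sit in the large one, Mrpl58 is a peptidyl-tRNA hydrolase that became part of the large subunit, and the protein of Mrps36 is known as part of the 2-oxoglutarate dehydrogenase complex.

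Promoters are shown for the 3 members with the deepest fall and the 3 with the highest log2 fold change in TBP LOF among the members with a promoter window, so that the letters can be set beside the values given further on. Each run holds 250 bases before and 50 bases after the RefSeq start (GRCm38.p6), written 5′ to 3′ on the strand of the gene. Capitals mark 5 motifs on either strand. TATAAA is the TATA box that TBP is known to bind. GCGCATGC is a core of the sites of NRF1, a factor known for genes of mitochondrial function. CCGGAAGT is a core shared by ETS family factors. GGGCGG is the box of SP1-type factors. ATGGCG is a core of the sites of YY1. Mrpl36, Mrpl23 and Mrps18b come first (the members that fell), followed by Mrps14, Mrpl1 and Mrps23.
Mrpl36, chr13:73330759-73331058, plus strand: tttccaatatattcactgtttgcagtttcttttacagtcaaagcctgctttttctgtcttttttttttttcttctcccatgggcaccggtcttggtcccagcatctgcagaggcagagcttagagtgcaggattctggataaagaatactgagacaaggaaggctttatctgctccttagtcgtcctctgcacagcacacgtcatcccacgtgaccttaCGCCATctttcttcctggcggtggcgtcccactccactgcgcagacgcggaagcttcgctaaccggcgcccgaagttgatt
Mrpl23, chr7:142532782-142533081, plus strand: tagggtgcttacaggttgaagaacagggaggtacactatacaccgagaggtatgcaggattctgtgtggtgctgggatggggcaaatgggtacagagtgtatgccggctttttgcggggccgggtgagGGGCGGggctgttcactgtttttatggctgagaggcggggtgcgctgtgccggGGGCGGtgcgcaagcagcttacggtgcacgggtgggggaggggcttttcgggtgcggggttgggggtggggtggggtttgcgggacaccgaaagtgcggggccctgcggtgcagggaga
Mrps18b, chr17:35916391-35916690, minus strand: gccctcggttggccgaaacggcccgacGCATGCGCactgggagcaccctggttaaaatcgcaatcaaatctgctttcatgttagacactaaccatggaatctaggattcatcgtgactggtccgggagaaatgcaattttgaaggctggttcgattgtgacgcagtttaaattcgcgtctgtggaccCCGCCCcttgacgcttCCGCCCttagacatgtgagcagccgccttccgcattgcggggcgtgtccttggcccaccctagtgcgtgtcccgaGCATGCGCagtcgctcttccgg
Mrps14, chr1:160194965-160195264, plus strand: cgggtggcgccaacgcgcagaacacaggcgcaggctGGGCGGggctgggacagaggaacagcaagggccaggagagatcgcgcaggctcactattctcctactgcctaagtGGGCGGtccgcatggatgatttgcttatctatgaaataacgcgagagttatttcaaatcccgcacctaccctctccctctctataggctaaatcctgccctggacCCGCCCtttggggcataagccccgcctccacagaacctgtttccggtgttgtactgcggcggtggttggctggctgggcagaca
Mrpl1, chr5:96209865-96210164, plus strand: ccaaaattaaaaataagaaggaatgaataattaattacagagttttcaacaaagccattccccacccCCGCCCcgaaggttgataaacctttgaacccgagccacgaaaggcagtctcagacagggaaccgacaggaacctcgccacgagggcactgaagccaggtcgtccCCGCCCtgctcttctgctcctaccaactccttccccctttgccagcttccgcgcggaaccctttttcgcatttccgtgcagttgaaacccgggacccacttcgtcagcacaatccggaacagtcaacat
Mrps23, chr11:88204138-88204437, plus strand: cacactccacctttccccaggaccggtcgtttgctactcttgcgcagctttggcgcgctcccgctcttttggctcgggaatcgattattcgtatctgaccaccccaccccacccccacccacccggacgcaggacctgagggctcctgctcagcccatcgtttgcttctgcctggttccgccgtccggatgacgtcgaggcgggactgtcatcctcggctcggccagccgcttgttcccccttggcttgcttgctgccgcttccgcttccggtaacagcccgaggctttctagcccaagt
No TATAAA is present in these 6 windows. Mrps18b holds GCGCATGC at 2 places and GGGCGG at 2, Mrpl36 holds a single ATGGCG, Mrpl23 holds GGGCGG at 2 places, Mrps14 at 3 and Mrpl1 at 2, and Mrps23 holds none of the 5 motifs.

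The tables count reads from the 5′ ends of transcripts. Of 49 embryos, 47 passed the thresholds of the study (at least 500000 counted reads and 1000 genes detected, at most 10% mitochondrial and 15% ERCC spike-in reads), which left 9 TBP LOF, 9 mouse IgG, 16 FOXJ3 LOF and 13 rabbit IgG embryos with 1103569 to 5434808 counted reads each. All 9 late 2-cell markers, such as the Zscan4 genes, had reads in each of the 4 groups. Of the 9 markers of cumulus cells, which surround the egg, Inhba and Fshr were at 0 in all 4 groups, and the list summed to at most 24.1 CPM, a count scaled to a common total of counted reads, in any embryo (0 to 4.45 in TBP LOF, 0.809 to 24.1 in mouse IgG, 0 to 11.2 in FOXJ3 LOF and 0 to 14.9 in rabbit IgG). In the TBP experiment other measures moved with the groups. ERCC reads took 2.67% to 6.12% of reads in TBP LOF embryos against 2.22% to 3.25% in CONTROL embryos, with 7 of 9 LOF embryos above the highest CONTROL. The 5 oocyte markers summed to 491 to 911 CPM in LOF and to 293 to 485 in CONTROL embryos, and the 9 late 2-cell markers to 318 to 1082 and 113 to 571. Their part in the results was not tested. Reads of the injected mCherry-Trim21 also differed, with medians of 1390 CPM in TBP LOF and 770 in mouse IgG embryos. In the FOXJ3 experiment the medians were 351 CPM in FOXJ3 LOF and 839 in rabbit IgG embryos, and in both experiments the ranges overlapped. A FOXJ3 fit with Trim21 as a covariate called 0 of the members. All embryos were staged as late 2-cell, and the files hold no count of cells, so a level is one per embryo and not per cell. The study reports that TBP LOF embryos lay nearer to earlier stages than CONTROL embryos in a principal component analysis. It proposes a developmental delay, and also reports that a later cleavage division and blastocyst formation came late in TBP LOF embryos. The part of such a delay in the TBP LOF values given here was not tested.

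All 78 members had enough reads to be tested in both experiments, and 55 had a read in every one of the 47 embryos. Mrps31, a mitochondria-specific protein of the small subunit, was at 0 in 17 of the 47 embryos and was the member most often without a read. Together the members took a mean of 0.271% ± 0.0492 of counted reads in mouse IgG embryos (SD, n = 9) and 0.328% ± 0.0949 in rabbit IgG embryos (SD, n = 13). These groups belong to different experiments and IgGs, which cannot be told apart. Per single gene the mean in mouse IgG embryos lay between 1.66 and 147 CPM. The 5 members with the most reads were Mrpl4, Mrpl12, Mrpl51, Mrpl40 and Mrpl34, with 11851 to 16643 reads each over the 47 embryos.

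Most mitoribosome genes were lower in TBP LOF embryos, by unequal amounts. With counts divided by size factors from the ERCC spike-ins, the scaling that the study used (normalised counts from here on), 51 of 78 members were lower (edgeR quasi-likelihood test, Benjamini-Hochberg adjusted p under 0.05) and 0 were higher. At an unadjusted p under 0.05, 57 were lower and 0 higher, against 36.4% and 2.76% of all genes. DESeq2 called 54 lower and 0 higher. Among all 18447 genes tested, 29.8% were called lower and 1.4% higher at the adjusted threshold, so 65.4% of members stands against 29.8%. The median log2 fold change of the members, LOF over CONTROL, was -1.39, beside -0.70 for all genes, and 60 of 78 members lay below the all-gene median. A fall of 4-fold or more was measured for 16 members, all of them called. The log2 fold changes ran from -3.92 for Mrpl54 to 0.25 for Mrps23.

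**Figure D1:**
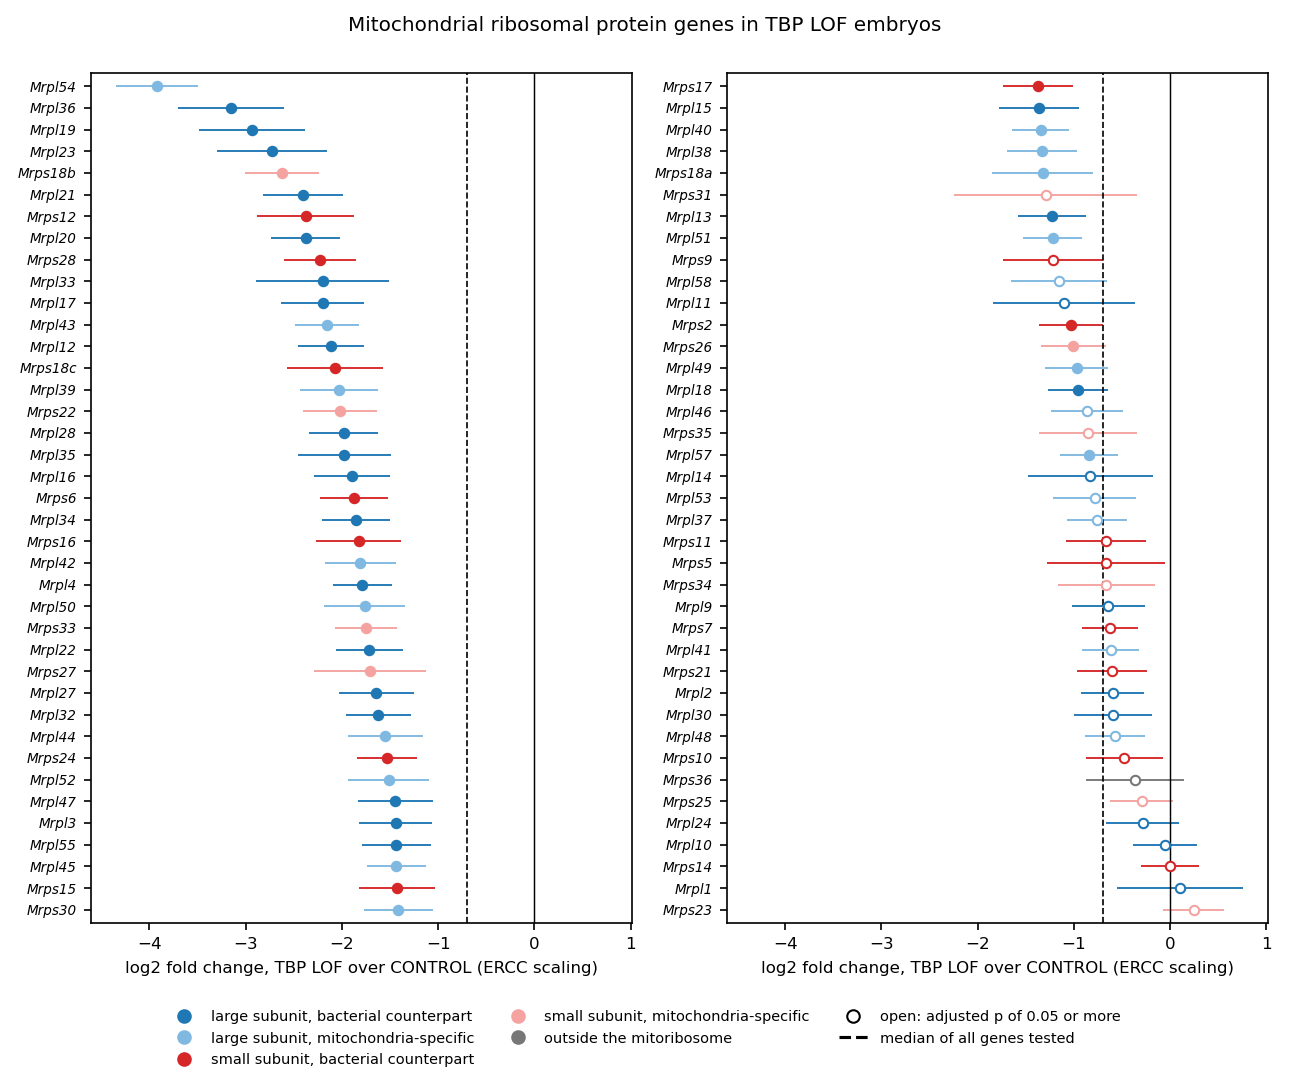
Log2 fold change of each of the 78 members in TBP LOF over CONTROL embryos with ERCC scaling (x axis; points, fitted values; bars, ± 1 SE; 9 embryos per group), sorted from the deepest fall. Filled points passed an adjusted p of 0.05, open points did not, colours give the subunit class, and the dashed line is the median of all genes tested at -0.70.

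Because the median of all genes was below 0 under the spike-in scaling, the members were also read against the bulk of the transcriptome. With TMM scaling, which sets the bulk of genes near no change (all-gene median 0.13), 26 members were lower and 3 were higher. The shares over all genes were then 12.9% lower and 13.2% higher, and the member median was -0.49. All 26 were also among the 51 called with ERCC scaling. Over all genes both the share called lower and the depth of the median fall rose with read count, and which leads was not tested. Most members are well read, so counts were set side by side within ranges of read count. Above a mean normalised count of 100, 11 of 14 members were called lower (78.6%) and 61.7% of all genes in that range. Between 25 and 50 it was 16 of 22 members (72.7%) against 48.9%, between 10 and 25 it was 13 of 20 (65%) against 35.7%. From 50 to 100, 9 of 15 members (60.0%) were called, close to the 56.9% of all genes. Up to a count of 10, 2 of 7 members (28.6%) were called, against 13.3%. From that range upward the member medians were -1.11, -1.53, -1.40, -1.41 and -1.28 on the log2 scale. Those of all genes were -0.52, -0.72, -0.88, -1.02 and -1.13, so the medians were closest above 100. Except within these ranges, the shares and medians of all genes given here are not matched for read count.

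**Figure D2:**
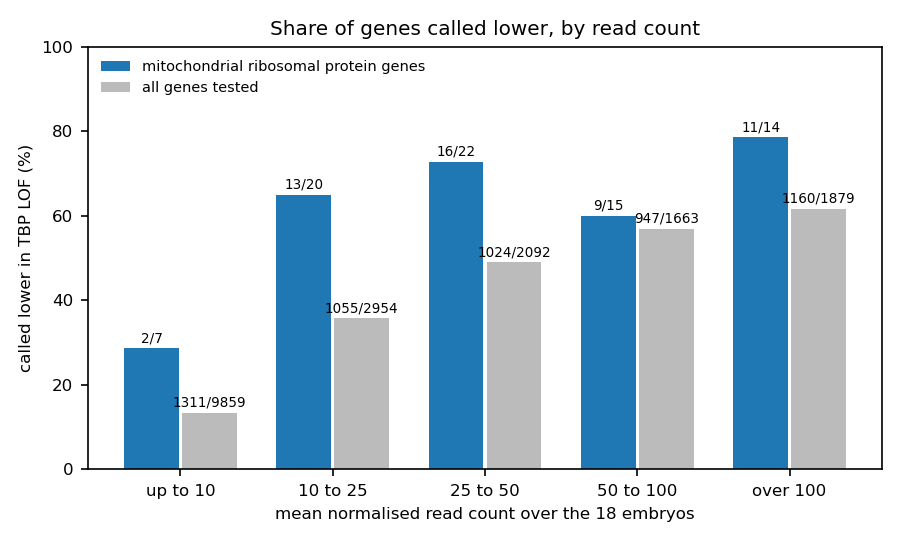
Percent of members and of all genes tested that were called lower in TBP LOF with ERCC scaling (bars, from 0), within ranges of the mean normalised count over the 18 embryos. The numbers over the bars give called over tested genes, and the 2 kinds of bar are nearly level between 50 and 100 (60.0% and 56.9%).

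The deepest fall was that of Mrpl54, a mitochondria-specific protein of the large subunit (GRCm38 chr10:81264713-81266934, minus strand; this build holds for all positions here). Its normalised count had a lowest, median and highest value of 16.3, 59.7 and 86.0 in CONTROL embryos and of 1.15, 3.62 and 6.14 in TBP LOF embryos. Every LOF embryo lay below every CONTROL embryo, and the fitted level was 15.2-fold lower (log2 fold change -3.92, SE 0.42, adjusted p = 7.15e-10). Mrps18b, a mitochondria-specific protein of the small subunit (chr17:35910379-35916389, minus strand), read 95.3, 128 and 148 in CONTROL and 2.20, 22.9 and 41.8 in LOF embryos, again without overlap. It fell 6.17-fold (log2 -2.63, SE 0.38, adjusted p = 2.95e-07). With TMM scaling, Mrpl54 and Mrps18b were the 2 members of 78 whose groups did not overlap. This held for 1.94% of all genes, so the members were near the background in this measure. With ERCC scaling the groups of 13 members did not overlap, a pattern seen in 6.96% of all genes.

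Of the proteins with a bacterial counterpart, Mrpl20 (chr4:155802878-155809975, plus strand), whose bacterial relative is an assembly protein, had normalised counts of 107, 260 and 438 (lowest, median, highest) in CONTROL and 9.52, 28.6 and 96.7 in LOF embryos, a 5.19-fold fall (adjusted p = 6.18e-07). Mrpl12, the L7/L12-type stalk protein that is also known to bind mitochondrial RNA polymerase (chr11:120484613-120489065, plus strand), read 185, 286 and 496 in CONTROL and 15.4, 68.2 and 149 in LOF embryos. It fell 4.33-fold (log2 -2.11, SE 0.34, adjusted p = 1.70e-06). Mrpl4, a protein of the exit tunnel region, went from a mean of 346 ± 120 to 100 ± 43.0 (SD, n = 9 each), 3.45-fold lower (adjusted p = 5.61e-06). The same direction was measured for Mrps28 (4.70-fold), Mrpl21 (5.29-fold) and the mitochondria-specific Mrpl43 (4.45-fold). In each of these members, too, every LOF embryo was below every CONTROL embryo. Exons of Mrps18b, Mrpl12, Mrpl43 and Mrpl21 overlap genes on the other strand (Gm16279, Gm16755, Twnk and Ighmbp2). The sources used here do not give the strand setting of the counting, so reads of such pairs cannot be told apart.

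Large falls on fewer reads were those of Mrpl36, Mrpl19 and Mrpl23, all large-subunit proteins with a bacterial counterpart and named after their values were seen. The promoters of Mrpl36 and Mrpl23 were printed with that of Mrps18b. Mrpl36 read 2.71, 25.7 and 90.5 in CONTROL and 0, 2.93 and 9.83 in LOF embryos, an 8.90-fold fall (adjusted p = 7.34e-06). Mrpl19 read 2.71, 18.3 and 57.3 in CONTROL and 0, 2.90 and 6.04 in LOF embryos, a 7.64-fold fall (adjusted p = 2.26e-05). Mrpl23 read 2.71, 21.9 and 34.3 in CONTROL and 0, 2.93 and 9.53 in LOF embryos, a 6.63-fold fall (adjusted p = 1.22e-04). In all 3 genes CONTROL embryo 2 lay within the LOF range, as did CONTROL embryo 4 for Mrpl36. Exons of Mrpl36 and Mrpl19 overlap Ndufs6 and Gcfc2 on the other strand. Of the other members among the 5 with the most reads, Mrpl51 went from 322 ± 87.4 to 138 ± 58.9, Mrpl40 from 273 ± 58.6 to 108 ± 50.6 and Mrpl34 from 280.2 ± 178 to 77.5 ± 42.5 (SD, n = 9 each), with adjusted p of 0.00109, 2.50e-04 and 3.27e-05 from edgeR. With TMM scaling the call of Mrpl51 was lost (adjusted p = 0.214).

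Some members did not follow. Mrps14, a small-subunit protein with a bacterial counterpart (chr1:160195215-160202170, plus strand), read 59.0, 98.9 and 188 in CONTROL and 49.8, 100.4 and 167 in LOF embryos, which left the fitted log2 fold change at -0.0047 (SE 0.30, adjusted p = 0.994). Mrps23, mitochondria-specific and also of the small subunit (chr11:88204388-88211507, plus strand), read 16.6, 61.4 and 79.8 against 33.2, 80.9 and 100.04 (log2 0.25, SE 0.32, adjusted p = 0.616). Mrpl10, the protein at the base of the stalk that carries Mrpl12 (chr11:97041560-97049213, plus strand), read 22.1, 42.0 and 67.1 against 22.7, 42.5 and 63.5 (log2 -0.06, SE 0.33, adjusted p = 0.925). For Mrps14 and Mrpl10, 0 LOF embryos lay above the highest CONTROL embryo, and for Mrps23 5 of 9 did, although its groups overlapped too. Relative to the bulk of genes these were the 3 members called higher with TMM scaling, at log2 fold changes of 0.84 for Mrps14 (adjusted p = 0.00378), 1.14 for Mrps23 (adjusted p = 0.00124) and 0.84 for Mrpl10 (adjusted p = 0.0131). Mrpl1, also among the 4 members nearest to no change, is thinly read, with means of 4.56 ± 2.62 in CONTROL and 4.75 ± 4.44 in LOF embryos (SD, n = 9 each; log2 0.10, SE 0.66, adjusted p = 0.932).

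**Figure D3:**
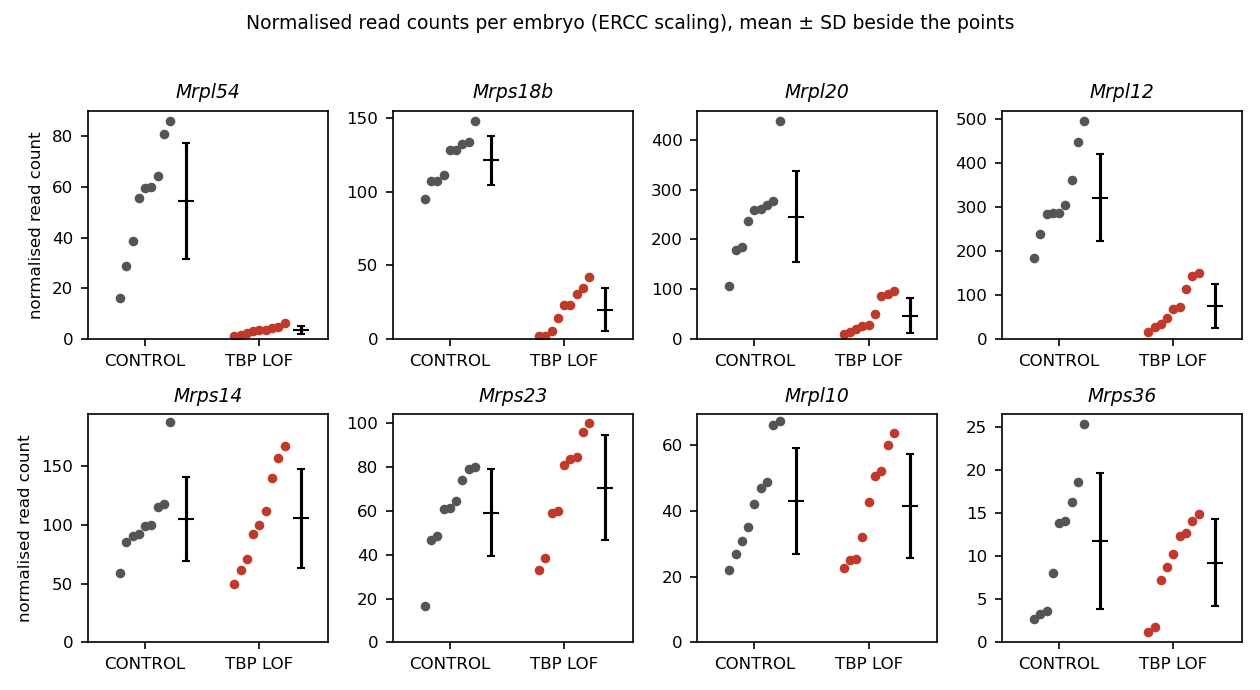
Normalised read count of 8 members in each CONTROL and TBP LOF embryo (y axis from 0, ERCC scaling; points, embryos sorted by value; bars, mean ± SD, n = 9 each). In the upper row (Mrpl54, Mrps18b, Mrpl20, Mrpl12) no LOF embryo reaches the lowest CONTROL embryo, and in the lower row (Mrps14, Mrps23, Mrpl10, Mrps36) the groups overlap.

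Members of both subunits were called lower, at shares to be read beside the 29.8% of all genes. Of the large-subunit members 37 of 51 were called lower (median log2 -1.44), and of the small-subunit members 14 of 26 (median -1.26), while 0 were called higher in either. Split by origin, 22 of 30 large-subunit proteins with a bacterial counterpart were lower (median -1.63), 15 of 21 mitochondria-specific large-subunit proteins (median -1.33), 9 of 16 small-subunit proteins with a counterpart (median -1.29) and 5 of 10 mitochondria-specific small-subunit proteins (median -1.15). The difference between these classes was not tested. With TMM scaling the counts of members lower and higher were 20 and 1 of 51 for the large and 6 and 2 of 26 for the small subunit, beside 12.9% and 13.2% of all genes.

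Next come the members whose names or roles set them apart. Mrps30 fell 2.66-fold, from 105 ± 66.7 to 39.8 ± 27.0 (SD, n = 9 each; adjusted p = 0.00136), and the call was lost with TMM scaling (adjusted p = 0.131). The 3 genes of the S18 family, whose proteins sit in the large subunit (Mrps18a) or the small one (Mrps18b, Mrps18c), had fitted falls of 6.17-fold for Mrps18b, 4.20-fold for Mrps18c (adjusted p = 7.95e-04, exons shared with Gm43511 on the same strand) and 2.51-fold for Mrps18a (adjusted p = 0.0477). The Mrps18a call was lost in 15 of 18 fits that left out 1 embryo (adjusted p of 0.0570 to 0.0828) and with TMM scaling (adjusted p = 0.504). Mrpl58 was at 24.0 ± 14.2 in CONTROL and 10.5 ± 10.5 in LOF embryos (SD, n = 9 each) and missed the threshold (adjusted p = 0.0708), which it passed without TBP LOF embryo 7 (adjusted p = 0.0240) or 10 (adjusted p = 0.0254). Exons of Mrps30 and Mrpl58 overlap B430218F22Rik and Ict1os on the other strand. Mrps36, outside the mitoribosome, was at 11.8 ± 7.85 and 9.25 ± 5.02 (log2 -0.37, SE 0.51, adjusted p = 0.654).

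Within the reads that fell on members, the balance between the subunits differed between the groups, a measure that no scaling between embryos can change. Small-subunit genes took 21.4% to 25.05% of member reads in CONTROL embryos (mean 23.4% ± 1.06, SD, n = 9) and 25.4% to 34.1% in TBP LOF embryos (28.7% ± 2.702, n = 9), and the ranges did not overlap. Mrps14 and Mrps23, picked after their values were seen, carry most of this. They had the highest log2 fold changes of the small subunit, and no large-subunit gene was left out beside them. A narrower difference without them therefore follows in part from the choice. Without both genes the share was 19.3% to 23.1% in CONTROL and 19.2% to 25.7% in LOF embryos, and the difference of means went from 5.26 to 1.67 percentage points. In the FOXJ3 experiment the share was 24.7% ± 1.74 in CONTROL (21.9% to 28.5%, n = 13) and 24.7% ± 1.84 in LOF embryos (20.9% to 28.5%, n = 16). Both of these ranges reach into that of the TBP LOF embryos.

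As a share of all counted reads, the members took 0.207% to 0.344% in mouse IgG embryos and 0.104% to 0.225% in TBP LOF embryos, where 6 of 9 lay below the lowest CONTROL. The difference of means was -0.104 percentage points (0.167% ± 0.0465 in LOF, SD, n = 9 each). In spike-in units the summed member count was 4901.5 to 9060 in CONTROL and 1375 to 3591 in LOF embryos, a ratio of means of 2.47, and every LOF embryo was below every CONTROL embryo. Both scales gave lower sums in LOF embryos, and only the spike-in scale separated the groups without overlap. In the FOXJ3 experiment the share of counted reads was 0.314% ± 0.0522 in LOF embryos (SD, n = 16), a difference from the CONTROL mean of -0.0144 percentage points. Within library batch 1 it was 0.338% in LOF and 0.327% in CONTROL embryos, and within batch 2 it was 0.283% and 0.33%.

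**Figure D4:**
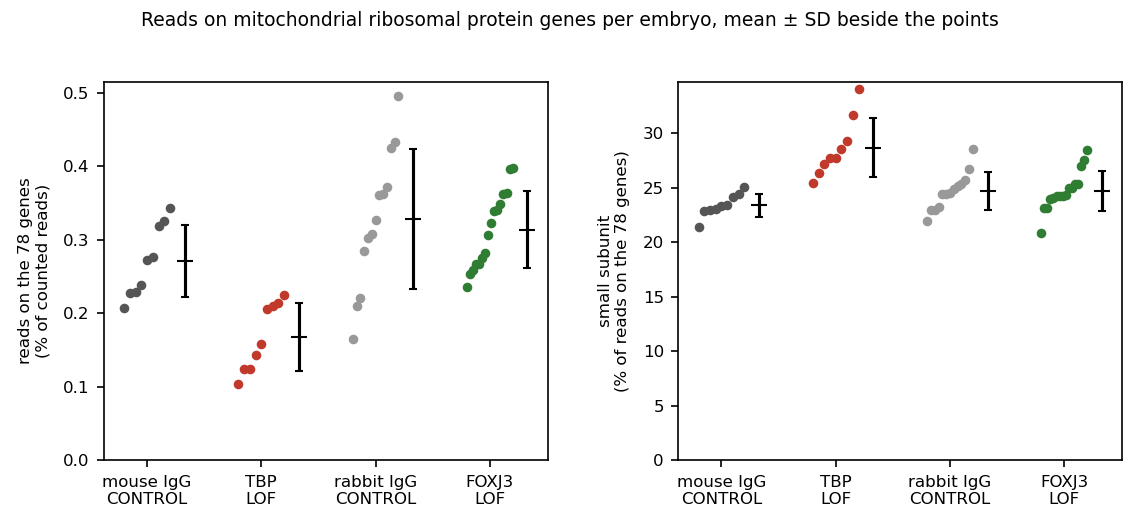
Left, percent of counted reads on the 78 members, and right, percent of those reads on small-subunit members, in each embryo of the 4 groups (y axes from 0; points, embryos sorted by value; bars, mean ± SD; n = 9, 9, 13 and 16). The TBP LOF mean is the lowest of the 4 on the left (0.167%) and the highest on the right (28.7%), and the FOXJ3 LOF embryos lie within the range of their CONTROL embryos on the left.

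The promoter windows were then compared as text. RefSeq windows were at hand for 69 members, in 75 windows. TATAAA stood in 5 of them (6.67%), against 13.6% of all 32851 windows and 7.92% of the 14967 windows of genes tested, and in 0 of 75 did it start 40 to 20 bases before the start on the strand of the gene, where TATA boxes lie, against 1.99% of all windows and 1.38% of those of genes tested. GCGCATGC stood in 8 member windows (10.7%, all windows 2.71%), CCGGAAGT in 12 (16%, all windows 3.89%), GGGCGG in 39 (52%, all windows 35.7%) and ATGGCG in 19 (25.3%, all windows 8.93%). In the windows of genes tested these shares were 4.78%, 7.24%, 57.2% and 13.8%, so GGGCGG was no more frequent in member windows than in those. In windows of cytosolic ribosomal protein genes they were 4%, 16%, 60% and 32%. In those of nuclear respiratory chain genes they were 14.1%, 7.04%, 38.0% and 28.2%. Raised shares of GCGCATGC, CCGGAAGT and ATGGCG are thus not particular to the members. Windows of members called lower in TBP LOF (45, of 44 genes) and of those not called (30, of 25 genes) held GGGCGG at like shares, 51.1% and 53.3%. Mrpl2 and Mrpl48 each count with several windows among those not called. CCGGAAGT stood in 11 of the 45 and in 1 of the 30 windows, the latter a window of Mrpl48. The median GC content was 58.7% in both sets. A match gives letters and not a bound factor, and none of these differences was tested.

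Many members share their promoter region with another gene. For 33 members a protein-coding gene starts within 1000 bases on the opposite strand, which makes 32 pairs, since Mrpl46 and Mrps11 face each other. In 14 pairs both genes were lower in TBP LOF, in 5 the member was lower and the neighbour was not called, in 2 the neighbour alone was called, in 10 neither was, and the neighbour in 1 pair had too few reads. Of the 31 neighbours tested 16 were lower, where 29.8% of all genes were. In 14 of the 32 pairs, Mrpl21 with Ighmbp2 and Mrpl43 with Twnk among them, exons of both genes overlap, and their reads cannot be told apart. In the other 18 pairs both genes were lower in 7, and 8 of 17 neighbours tested were lower. Mrps18b and Ppp1r10, a regulatory subunit of protein phosphatase, start 45 bases apart, and beside the 6.17-fold fall of Mrps18b the mean count of Ppp1r10 was 83.8 in both groups (log2 -0.0084, SE 0.33, adjusted p = 0.990). Mrpl54 starts 26 bases from Apba3, which fell (log2 -1.58, SE 0.44, adjusted p = 0.00380), beside -3.92 for Mrpl54. Mrpl51 and the condensin gene Ncapd2 fell together (log2 -1.22 and -1.59). Exons of 33 members overlap another gene on either strand. Among the other 45, 30 were lower and 0 higher, with a median of -1.42, and 17 were lower and 2 higher with TMM scaling (all genes 29.8% and 1.4%, and 12.9% and 13.2% with TMM).

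The wider machinery of mitochondrial translation was read from lists of 64 genes. In TBP LOF 42 of 64 were lower and 0 higher (median log2 -1.49), and 19 were lower and 4 higher with TMM scaling, beside 29.8% and 1.4%, and 12.9% and 13.2%, of all genes. With TMM scaling the counts lower and higher were 2 and 1 of 5 other subunits, 5 and 0 of 22 assembly factors, 3 and 0 of 16 translation factors, 6 and 3 of 17 synthetases and 3 and 0 of 4 transcription genes. With ERCC scaling they were as follows. Among the mitoribosome proteins whose symbols lack the Mrp prefix, Aurkaip1, Chchd1, Gadd45gip1 and Ptcd3 fell (4 of 5, log2 -1.66, -1.89, -1.66 and -0.91), while Dap3, a small-subunit GTP-binding protein, stood at -0.039 on the log2 scale (SE 0.39, adjusted p = 0.958). Of the assembly and rRNA modification factors 14 of 22 were lower, among them Rbfa, a small-subunit maturation factor (log2 -2.79, SE 0.53, adjusted p = 3.09e-05), and the rRNA methyltransferase Mrm1 (log2 -2.13). Of the translation factors 11 of 16 were lower, such as the initiation factor Mtif2 (log2 -2.02) and Oxa1l, which inserts new proteins into the inner membrane (log2 -1.83). Of the mitochondrial aminoacyl-tRNA synthetases 10 of 17 were lower, with the smallest adjusted p for Ears2 (log2 -2.36, SE 0.41, adjusted p = 5.81e-06) and Cars2 (log2 -2.19). Mitochondrial transcription genes fell in 3 of 4 cases: Tfb2m went from 237 ± 55.9 to 48.5 ± 21.0 (SD, n = 9 each; adjusted p = 6.96e-08), Polrmt, the mitochondrial RNA polymerase, from 99.98 ± 40.6 to 16.3 ± 14.02 (adjusted p = 5.04e-07), and Tefm had a log2 fold change of -2.31, while Tfam was thinly read and not called (log2 -1.29, SE 0.61, adjusted p = 0.106).

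The rRNAs that these proteins bind are transcribed in the mitochondrion. For mt-Rnr1, the small-subunit rRNA, the fit gave -0.78 on the log2 scale (SE 0.36, adjusted p = 0.0942) and for mt-Rnr2, the large-subunit rRNA, -0.50 (SE 0.34, adjusted p = 0.294), so neither was called. With TMM scaling they were at -1.9e-05 and 0.35. Smart-seq libraries are primed from poly(A) tails, so the counts of both rRNAs need not track the full rRNA pool.

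Other nuclear gene sets give the setting. Of 83 cytosolic ribosomal protein genes 77 were lower in TBP LOF (median -1.79), and of 82 tested nuclear respiratory chain genes 48 (58.5%, median -1.12), while 0 were higher in either. With TMM scaling the counts lower and higher were 56 and 1 for the cytosolic ribosome and 19 and 4 for the respiratory chain. The mitoribosome members lay between these sets in median and in the share called. Above a mean normalised count of 100, 75 of 80 cytosolic ribosomal protein genes (93.8%) and 19 of 26 respiratory chain genes (73.1%) were lower, beside the 11 of 14 members. These shares were not tested against each other.

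FOXJ3 LOF left no member past the threshold. With TMM scaling and library batch as a term, 0 of 78 were called (edgeR quasi-likelihood test, smallest adjusted p = 0.655), and over all 18626 genes 0.0107% were. At an unadjusted p under 0.05 there were 2 members, both lower, against 5.69% of all genes, and DESeq2 with a batch term called 0. The median log2 fold change was 0.012, with 39 members below and 39 above 0, and -0.027 for all genes. With ERCC scaling the all-gene median was 0.15, the member median was 0.18, and 0 members were called. Then 14 members lay below 0 and 64 above, beside 6602 and 12024 of all 18626 genes. The SE of a member lay between 0.14 and 0.64. For 66 members the 95% interval (normal approximation from the SE) lay within -1 and 1 on the log2 scale, and for 12 it reached further, so that differences of 2-fold lie within the intervals of those 12.

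The smallest unadjusted p belonged to Mrpl42, a mitochondria-specific large-subunit protein. It read 29.5, 61.1 and 114 (lowest, median, highest normalised count) in rabbit IgG and 19.1, 38.4 and 73.7 in FOXJ3 LOF embryos, where 13 of 16 lay below the CONTROL median (log2 -0.64, SE 0.21, unadjusted p = 0.00413, adjusted p = 0.655). In library batches 1 and 2 its log2 fold change was -0.46 (SE 0.31) and -0.88 (SE 0.26). Mrpl35 followed (log2 -0.59, SE 0.28, unadjusted p = 0.0426, adjusted p = 0.861) and then Mrps23 (log2 -0.32, SE 0.18, adjusted p = 0.904). On the other side were Mrps28 (log2 0.43, SE 0.25), Mrps35 (0.51, SE 0.31) and Mrpl34 (0.38, SE 0.24), with adjusted p of 0.910, 0.916 and 0.916 from edgeR. In TBP LOF, Mrpl42, Mrpl35, Mrps28 and Mrpl34 had fallen (log2 -1.81, -1.97, -2.23 and -1.86), whereas Mrps35 was not called (log2 -0.85, SE 0.51, adjusted p = 0.214).

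The FOXJ3 values were also read within each batch. Opposite signs were measured for 49 of 78 members (62.8%) and for 54.0% of the 17480 genes tested in both batches. In batch 1 the member median was 0.11 with 25 members below 0 (32.1%, all genes 54.4%), and in batch 2 it was -0.14 with 50 below 0 (64.1%, all genes 48.4%). The all-gene medians were -0.061 and 0.017. Rabbit IgG embryos 2 and 3 of batch 1, named after their values were seen, had low counts of some members. Their normalised counts were 0 and 4.37 for Mrpl54 (25.1 to 71.6 in the other rabbit IgG embryos) and 30.9 and 42.7 for Mrps18b (111 to 227). Mrpl20 read 75.7 and 49.2 (175 to 524), while Mrps14 read 142 and 187 (93.5 to 292). Members took 0.210% and 0.164% of their counted reads. Their part in the batch 1 values was not tested. The interaction of FOXJ3 LOF with batch was called for 0 of 78 members (smallest adjusted p = 0.599), as for 0% of all genes, and for 0 members with DESeq2. At an unadjusted p under 0.05 there were 4 of 78 members, beside 8.02% of all genes, so the members do not exceed the background. The thinly read Mrps36 was among them (log2 difference -1.82, SE 0.79, unadjusted p = 0.0263).

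**Figure D5:**
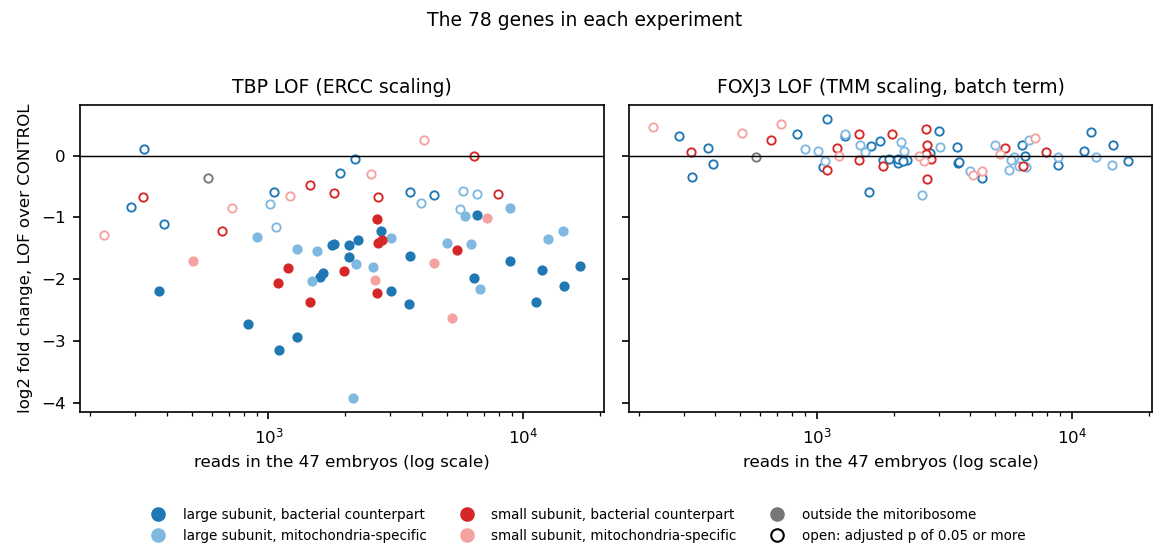
Log2 fold change of the 78 members (y axis) against their reads in the 47 embryos (x axis, log scale) in TBP LOF (left, ERCC scaling) and in FOXJ3 LOF (right, TMM scaling with a batch term). Filled points passed an adjusted p of 0.05: 51 on the left, all below 0, and 0 on the right.

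Whether the effects of the 2 depletions differ was tested in a single fit of all 47 embryos with ERCC scaling, which also takes in the difference between experiments. The TBP effect was lower than the FOXJ3 effect for 50 of 78 members and higher for 0, where 28.1% of all genes were called lower and 0.97% higher, and the median difference was -1.57 on the log2 scale beside -0.90 for all genes. It was -4.25 for Mrpl54 (SE 0.57, adjusted p = 7.34e-08), -2.81 for Mrps18b (SE 0.47, adjusted p = 3.92e-06) and -2.46 for Mrpl12 (SE 0.42, adjusted p = 4.76e-06). For Mrps14, Mrpl10 and Mrps23 it was -0.078, -0.11 and 0.37, with adjusted p of 0.915, 0.898 and 0.535 from edgeR. With TMM scaling 14 members were lower and 3 higher, where 10.9% and 10.5% of all genes were, and the 3 were again Mrps14, Mrpl10 and Mrps23.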

How the data were processed

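Single embryos were sequenced by Smart-seq+5′. Per the labels and the study's methods, the authors trimmed reads, aligned them with STAR 2.7.11a to GRCm38 with the injected construct added and Trim21 masked, kept 5′ reads and counted genes and TE families with TEcount (GENCODE M20). The deposited values are unnormalised estimated counts, whole numbers in every table. TElocal tables were not used, since they hold the same gene rows. Gene symbols came from GENCODE M21 by gene ID, matched for 54723 of 54838 rows, and 42 TE subfamily rows were added to their families. The 47 embryos that passed the thresholds of the study had 1103569 to 5434808 counted reads, so members with few reads are measured least well.

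Features with at least 1 read in 25% of embryos were fitted with edgeR 4.0.16 (R 4.3.3) by the quasi-likelihood test and adjusted by Benjamini-Hochberg across all fitted features, at a threshold of 0.05. TBP LOF used size factors from the 42 ERCC spike-ins read in every embryo, and FOXJ3 LOF used TMM and a batch term. The SE was derived from the F statistic. Normalised counts are counts divided by the size factor of the fit. DESeq2 1.42.0, other scalings, filters, sample sets and a replicate block were alternatives. Scripts were tested on simulated data. In the simulated TBP comparison 11 of 100 changes of 2-fold and 85 of 100 of 4-fold were called. In the simulated FOXJ3 comparison 56 and 97 were. Few genes were changed there, so these rates need not hold for the data, but a 2-fold change can go uncalled. Which embryos shared a litter or collection is not given, so p-values measure the spread between these embryos.

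Named members were, for TBP LOF, up to 8 called members per direction by adjusted p and the 4 nearest to no change, for FOXJ3 LOF the 3 with the smallest p in each direction, the 5 with the most reads, and 7 fixed for their role. Members and lists were chosen with earlier results of these data known. Mrpl36, Mrpl19 and Mrpl23, the promoters shown and the neighbour pairs were chosen after values were seen.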

Additional observations from a re-analysis of the deposited data

Results flagged for a closer look

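The normalised counts of the named members and 2 shares were examined in the 9 TBP LOF and the 9 CONTROL embryos for an embryo far from the others (Dixon's criterion, 50 groups of values). For normally distributed values chance alone flags about 1 in 20 such groups, and 6 of 50 were flagged. Counts need not be normally distributed and the groups share embryos, so no excess can be read from these rates. Mrps14 read 187.7 in CONTROL embryo 8 against 59.0 to 118 in the others. Mrpl34 read 173.9 in TBP LOF embryo 5 against 41.3 to 102, Mrpl58 read 56.4 in CONTROL embryo 10 against 11.9 to 31.2, and Mrps30 read 260.3 in CONTROL embryo 6 against 35.4 to 130. Mrps18a was flagged in both groups, at 23.8 in TBP LOF embryo 10 against 0 to 7.94 and at 5.42 in CONTROL embryo 2 against 15.6 to 24.2. Leaving out TBP LOF embryo 10 gave Mrps18a a log2 fold change of -1.89 (adjusted p = 0.00538, edgeR). The TBP and FOXJ3 effects differed for 50 members by the test of the difference itself (edgeR, ERCC scaling).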

How the results depend on the processing

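The counts in TBP LOF depend on the scaling. With TMM and with DESeq2 size factors on genes and TE families alike, 26 members were lower and 3 higher, and 19 of the other mitochondrial translation genes were lower; the member median was -0.49 and -0.47. TMM in the joint fit gave 17 members with a difference between the TBP and FOXJ3 effects, median -0.46. Without Mrps14 and Mrps23, chosen after seeing the data, the small-subunit difference was 1.67 percentage points. Some members changed sign. The all-gene median went from -0.70 to 0.13 with TMM, and members below 0 from 76 to 55. With TMM and with DESeq2 size factors, Mrps14 was at 0.84 and 0.87, Mrpl10 at 0.84 and 0.88, Mrps35 at 0.11 and 0.12 and Mrps36 at 0.51 and 0.55. With all 19 embryos Mrps14 was at 0.028, Mrpl10 at 0.043 and Mrpl1 at -0.13.

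The labels give LOF and CONTROL embryos shared numbers. With the number as a replicate block (7 pairs) 51 members and 34 other genes were lower, and without the block in the same embryos 46 and 34, so the block moved neither count by over 1.5 times. In these 7 pairs, which lack TBP LOF embryo 7, Mrpl58 passed the threshold with the block (-1.85) and not without it (-1.44). Mrps14 was at 0.17 and 0.15 and Mrpl10 at 0.059 and 0.014 with and without it. The correlation of deviations between same-numbered embryos was -0.05 to 0.12 in TBP pairs, with 0 of 7 highest for their own number, and -0.24 to 0.27 in FOXJ3 pairs, with 3 of 12.

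Leaving out each embryo in turn gave 48 to 54 members lower and 0 higher, medians of -1.49 to -1.32 and 38 to 43 other genes lower, and 47 members were lower in all 18 fits. Log2 fold changes then ran from -0.11 to 0.14 for Mrps14, -0.15 to 0.048 for Mrpl10 and -0.31 to 0.27 for Mrpl1. Mrpl58 passed the threshold without TBP LOF embryo 7 (-1.50) or 10 (-1.45), and Mrps18a kept its call without TBP LOF embryo 8 or 10 or CONTROL embryo 2. In FOXJ3 LOF every alternative gave 0 members called, with medians of -0.03 to 0.05 over left-out embryos. The filter, DESeq2, the embryos below the quality thresholds, and the denominator of the shares kept the direction and the call of the summary values, though the edgeR filter left Mrps18a among others without a value.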
